A study of Mus musculus with 48 samples.

Results

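The 41 genes described here are interferon-stimulated genes, genes that cells switch on when interferon binds its receptors. They were taken by name from the deposited table of gene counts, in which all 41 occur among 36935 genes. The set was chosen from the measured values, because several of its members stood higher in double knockout cells at day 6 of differentiation, and the question put to it was whether the whole set does. The values of that contrast are therefore given below as a description, and tests are read only in comparisons that do not use the E14 and double knockout libraries of day 6. The cells were the mouse embryonic stem cell line E14 (labelled wildtype), a KAT6A-/- knockout, a KAT6B-/- knockout and a double knockout (KAT6A-/-; KAT6B-/-), all in the E14 background. KAT6A and KAT6B are lysine acetyltransferases that act on histone H3. Day 0 libraries are from stem cells kept with LIF, and days 2, 6 and 15 follow a course towards neurons. There are 3 libraries in each of 16 groups and 48 in all. Withdrawal of LIF gave embryoid bodies, which received 10 µM all-trans retinoic acid starting on day 4, and cells were dissociated and plated in neuronal medium at day 8, so that day 2 and day 6 libraries are from embryoid bodies and day 15 libraries from plated cells. The labels name no interferon treatment or infection in any group. The replicates came from 3 independent differentiations, and whether each knockout is 1 clone is not given in the sources used here, so the p-values below measure the spread between these libraries and not between clones.

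Type I interferons signal through the receptor chains IFNAR1 and IFNAR2 and the kinases JAK1 and TYK2. A complex that holds STAT2 and IRF9 then binds the interferon-stimulated response element (ISRE), whereas interferon gamma acts mainly at gamma-activated sites (GAS). The induced genes include antiviral effectors, sensors of foreign nucleic acid, GTPases that attack intracellular parasites, and the machinery that cuts and loads peptides for class I histocompatibility molecules. Embryonic stem cells are known for a weak interferon response, which matures as they differentiate.

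The sequence these genes share was looked for first. RefSeq promoter windows (build GRCm38.p6, from 250 bases before to 50 bases after the annotated start) were found for 33 of the 41 members. The ISRE core, spelled as GAAA, any 2 bases and GAAA again (TTTC, any 2 bases and TTTC on the other strand), was present in 18 of the 33 windows (54.5%), against 3.99% of 27025 genes with a window. The GAS core, spelled as TTC, any 3 bases and GAA, which reads the same on both strands and can overlap an ISRE, was present in 10 of the 33 (30.3%), against 9.55% of genes. The stretches below are shown because they come from members with large changes at day 6 or called changes at days 0 and 2. Each is read 5′ to 3′ along the gene's own strand, ends before the annotated start, and has the matched core in capitals. They lie at chr4:156200867-156200916 for Isg15 (minus strand, core from -78), chr19:34640784-34640833 for Ifit1 (plus strand, core from -85), chr19:34583387-34583436 for Ifit3 (plus strand, core from -122), chr12:26456543-26456592 for Rsad2 (minus strand, core from -120), chr11:82951927-82951976 for Slfn5 (plus strand, core from -155), chr11:58199502-58199551 for Igtp (plus strand, core from -34) and chr11:78984950-78984999 for Lgals9 (minus strand, core from -55).
Isg15: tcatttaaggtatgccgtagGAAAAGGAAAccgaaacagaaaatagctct
Ifit1: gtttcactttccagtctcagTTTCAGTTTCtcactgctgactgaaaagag
Ifit3: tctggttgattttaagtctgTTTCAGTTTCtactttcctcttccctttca
Rsad2: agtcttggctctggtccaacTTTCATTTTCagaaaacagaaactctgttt
Slfn5: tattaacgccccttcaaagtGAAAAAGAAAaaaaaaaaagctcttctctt
Igtp: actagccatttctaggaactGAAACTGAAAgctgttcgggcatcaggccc
Lgals9: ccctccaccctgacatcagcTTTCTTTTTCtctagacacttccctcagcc
Isg15 holds 3 overlapping cores, and the Ifit3 stretch has the same letters in Ifit3b, a neighbouring near-copy of Ifit3. A match is a description of letters, not of a bound site. Zbp1, Rtp4, Dhx58, Parp9, Parp14, Mx1, Mx2 and Usp18 had no window to search.

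The libraries held between 22.5 and 72.23 M counts each, and no 2 libraries held identical values. RNA counted over Kat6a was 50.2% to 66.9% of the same-day E14 mean in the KAT6A-/- groups and 59.8% to 75.2% in the double knockout. RNA counted over Kat6b was 59.8% to 96.3% of E14 in the KAT6B-/- groups and 65.4% to 94.6% in the double knockout. These counts cover the whole genes, and the sources used here do not say which part was edited, so they do not check the edit itself. The stem cell markers and, at day 15, the neuron markers of the labelled cell types were present in all groups. The neuron markers summed to 1350 to 2430 CPM (counts scaled to library size) in E14 at day 15 but to 139 to 823 CPM in the double knockout. In these bulk samples, fewer cells of a type and less RNA per cell cannot be told apart.

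At day 6 all 41 members were higher in the double knockout than in E14. Their log2 fold changes, fitted with edgeR over the 12 libraries of the day, ran from 0.22 for Stat2 to 2.22 for Ifit3b, with a median of 1.20 and a middle range from 0.85 to 1.64, beside a median of -0.0154 over all 20533 genes tested, of which 47.5% were above 0. In 37 members the 3 double knockout libraries lay above the 3 E14 libraries without overlap, as did those of 6.6% of all genes. The 4 that overlapped were Stat2, Dhx58, Mx1 and Tap1. The fit called 5 members higher at adjusted p under 0.05, namely Helz2, Rsad2, Slfn5, Igtp and Lgals3bp, where 0.039% of all genes tested, 8 in number, were called. These 5 were 0 to 3 when any 1 of the 6 E14 and double knockout libraries was left out, 16 without replicate 1 of the KAT6B-/- knockout, 0 with the 6 libraries alone in the fit, and 29 with DESeq2, which called 0.789% of all genes higher. Since this contrast chose the set, nothing is read from these counts. Of the 41 members, 38 reached the filter on low counts in both groups, and Zbp1, Ifit3b and Mx1 reached it in the double knockout but not in E14.

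**Figure D1:**
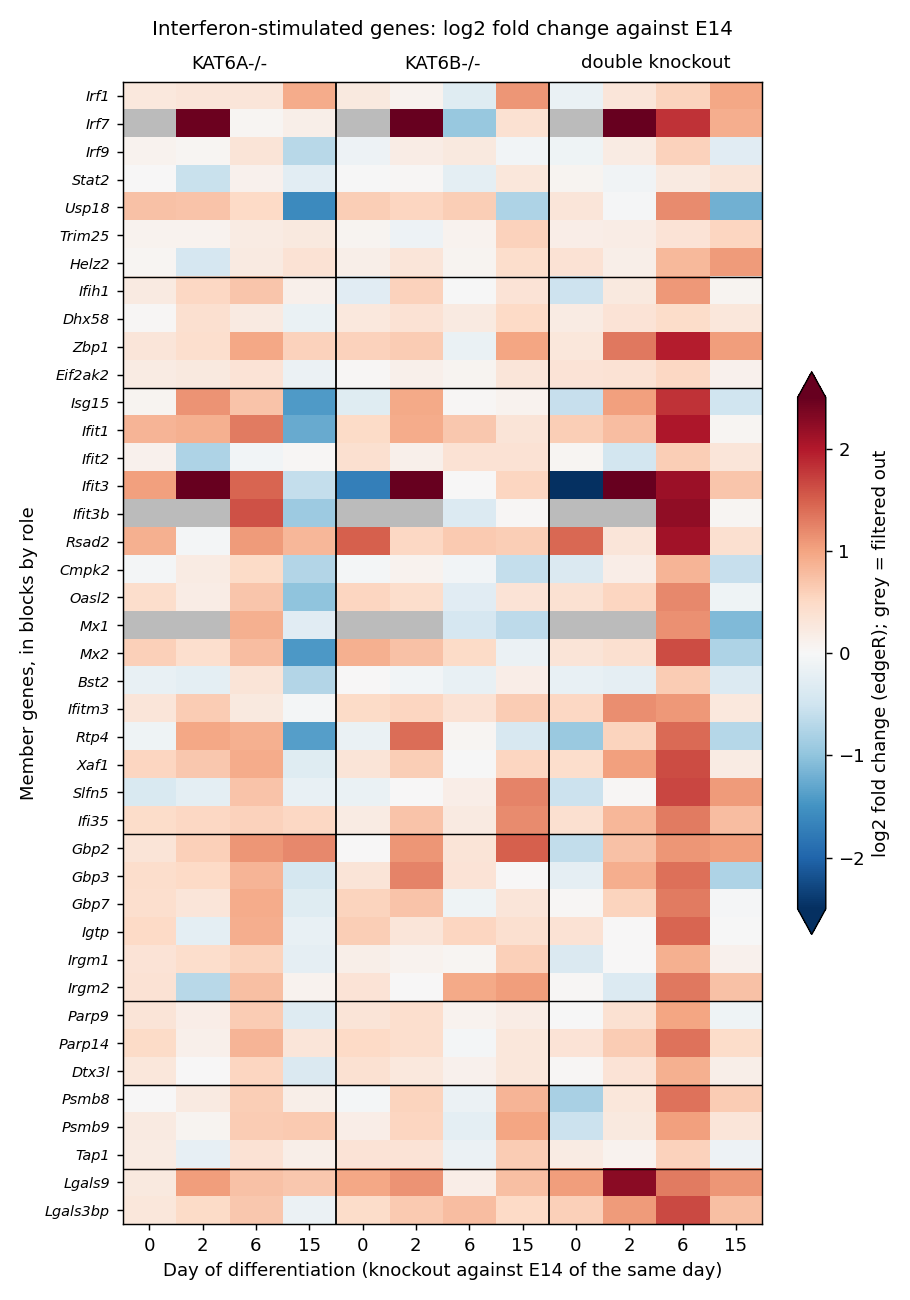
Log2 fold changes of the 41 members (rows, in blocks by role) for each knockout against same-day E14 (columns, days 0, 2, 6 and 15), red for higher, blue for lower, with colours saturated at the ends of the scale and grey for members that the filter on low counts left out. The day 6 column of the double knockout is red in all 41 rows, whereas its day 0 and day 15 columns hold both colours.

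The same was visible library by library. The median over the 41 members of log2 CPM minus the day 6 E14 mean was 0.991, 1.27 and 1.51 in the 3 double knockout libraries, and each of the 3 had 41 of 41 members above that mean. In the KAT6A-/- libraries it lay between 0.575 and 0.738. In the KAT6B-/- libraries it was -0.354, 0.264 and 0.293, and the lowest, replicate 1, stood apart from the other 2. The E14 libraries spread from -0.122 to 0.23, so the E14 library nearest the KAT6A-/- range was still below it. The summed CPM of the members was 591 ± 76.7 in E14, 807.5 ± 59.2 in KAT6A-/-, 623.5 ± 121 in KAT6B-/- and 1090 ± 146 in the double knockout (SD, n = 3 each).

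**Figure D2:**
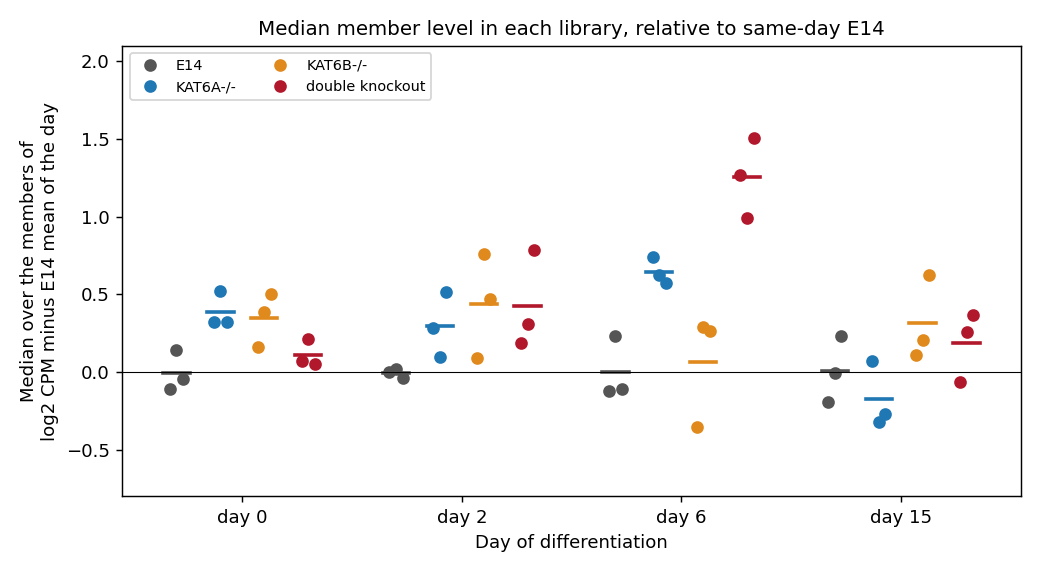
Each point is 1 library, its height the median over the 41 members of log2 CPM minus the E14 mean of the same day, and the bars are group means. At day 6 the double knockout libraries, at 0.991 to 1.51, lie above all 9 other libraries, and the KAT6A-/- libraries, at 0.575 to 0.738, lie above the E14 libraries.

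Among the regulators the day 6 differences were the smallest, with a median of 0.584 over 7 genes. Irf7, the interferon-induced factor that amplifies interferon production, was scarce. Irf7 stood at 1.45, 1.5 and 0.728 CPM in E14, 1.64, 1.21 and 0.951 CPM in KAT6A-/-, 0.288, 0.769 and 0.792 CPM in KAT6B-/- and 5.58, 2.39 and 4.96 CPM in the double knockout. All 3 double knockout libraries lay above the other 9, and the log2 difference from E14 was 1.80 ± 0.43 (SE). Irf1, a factor induced by interferon gamma, was abundant and differed less, at 39.9, 59.4 and 45 CPM in E14 against 81.3, 67.9 and 67.1 CPM in the double knockout. Trim25, the ubiquitin ligase that activates RIG-I, ran from 111 to 125 CPM in E14 and from 134 to 161 CPM in the double knockout. Stat2 and Irf9, partners in the ISRE-binding complex, differed by 0.22 ± 0.16 and 0.58 ± 0.13, Usp18, which restrains the receptor, by 1.18 ± 0.30, and Helz2, a helicase co-activator, by 0.82 ± 0.13 (log2, SE).

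The 4 nucleic acid sensors had a median log2 difference of 0.802. Zbp1, the Z-nucleic acid sensor that triggers necroptosis, had the largest. Zbp1 was at 0.527, 1.95 and 0.2 CPM in E14, 2.04, 2.04 and 1.2 CPM in KAT6A-/-, 0.461, 0.499 and 1.38 CPM in KAT6B-/- and 4.6, 2.62 and 3.28 CPM in the double knockout. Its double knockout libraries lay above all others, although E14 replicate 2 stood well above the other 2 E14 libraries. The difference was 1.95 ± 0.65 and ran from 1.46 to 3.31 when 1 library was left out, the highest without E14 replicate 2. Ifih1, the MDA5 sensor of long double-stranded RNA, was at 3, 5.11 and 3.71 CPM in E14 and 7.52, 7.34 and 10.5 CPM in the double knockout. Eif2ak2, the kinase PKR that halts translation on double-stranded RNA, was at 28.6 to 33.2 CPM in E14 and 42 to 53.7 CPM in the double knockout. Dhx58, the regulator LGP2, differed by 0.46 ± 0.26 (log2, SE).

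The 16 antiviral effectors had the highest median of the role groups with more than 2 genes, at 1.53, and ran from 0.61 for Ifit2 to 2.22 for Ifit3b. Isg15, the ubiquitin-like modifier, was at 5.47, 5.02 and 3.24 CPM in E14, 7.98, 8.7 and 6.1 CPM in KAT6A-/-, 1.76, 7.11 and 5.06 CPM in KAT6B-/- and 17.8, 11.2 and 20 CPM in the double knockout. Its order was double knockout above KAT6A-/- above E14 with no overlap between those 3 groups. Ifit1, which binds RNA with a foreign cap, was at 2.77, 2.85 and 1.8 CPM in E14, 6.32, 7.24 and 4.76 CPM in KAT6A-/-, 2.07, 5.49 and 4.06 CPM in KAT6B-/- and 10.2, 6.82 and 13.7 CPM in the double knockout. Here double knockout replicate 2 fell within the KAT6A-/- range.

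Ifit3 was at 1.15, 1.54 and 0.819 CPM in E14 and 3.76, 3.91 and 2.11 CPM in KAT6A-/-. Its levels were 0.691, 1.1 and 1.67 CPM in KAT6B-/- and 6.75, 2.3 and 6.7 CPM in the double knockout. Replicate 2 was again the lowest double knockout library, and Ifit3 and Ifit3b may share reads, so their counts are uncertain one by one. Rsad2, the enzyme viperin that makes a chain-terminating nucleotide, was at 1.58, 2.05 and 1.86 CPM in E14, 4.44, 4.12 and 3.08 CPM in KAT6A-/-, 1.64, 3.12 and 3.78 CPM in KAT6B-/- and 7.75, 6.54 and 9.85 CPM in the double knockout. Its double knockout libraries lay above all 9 others, and its log2 difference from E14 was 2.11 ± 0.30 (SE).

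The more abundant effectors differed less. Bst2, the tether tetherin, was at 28 to 45.6 CPM in E14 and 50.8 to 63.7 CPM in the double knockout. Ifitm3, a membrane protein that blocks virus entry, was at 30.2, 38.9 and 43.6 CPM in E14 and 74.9, 76.3 and 90.7 CPM in the double knockout, above every other library of that day. The others were Mx1 and Mx2, Slfn5, Xaf1, Ifi35, Oasl2, Rtp4, Cmpk2, Ifit2 and Ifit3b, with log2 differences between 0.61 and 2.22. Mx1 was the least certain of them, at 1.14 ± 0.73 (log2, SE).

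**Figure D3:**
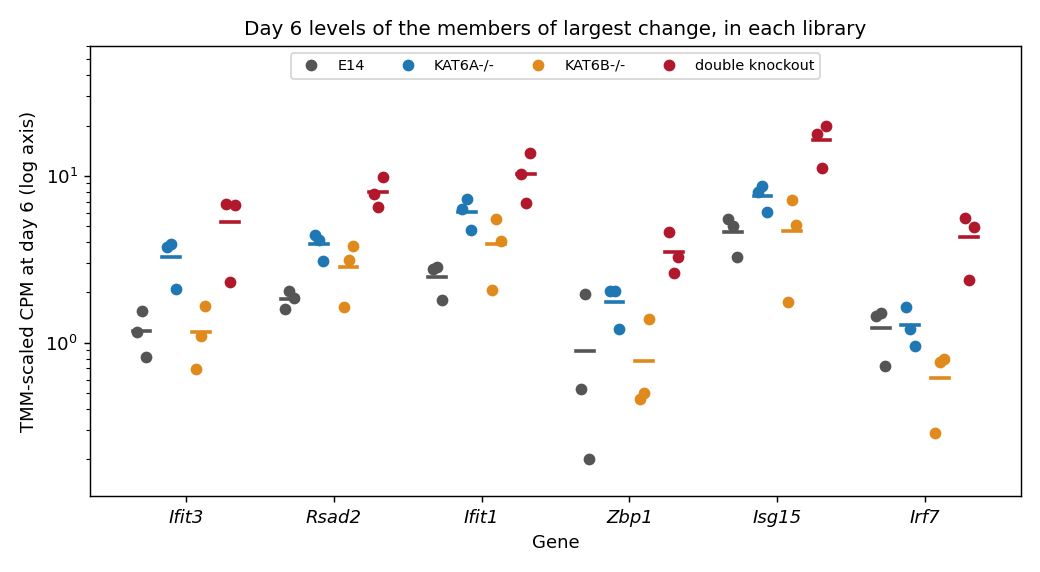
CPM at day 6 on a log axis for the 6 members with the largest log2 difference between the double knockout and E14. They were taken from members with a mean of at least 1 CPM over the day 6 groups. Each point is 1 library and each bar a group mean of 3. For Rsad2, Zbp1, Isg15 and Irf7 the 3 double knockout points lie above the other 9, and for Ifit1 and Ifit3 double knockout replicate 2 lies within the KAT6A-/- range.

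The interferon-inducible GTPases, which assemble on vacuoles that hold parasites, were all 6 higher, with a median of 1.30 and no overlap in any. Gbp2 was at 5.9, 10.7 and 4.48 CPM in E14 and 16, 13.7 and 16 CPM in the double knockout, but the KAT6A-/- libraries, at 17.5, 17.6 and 10.3 CPM, reached as high. Irgm1 was at 11.7 to 15.1 CPM in E14 and 17.3 to 34.5 CPM in the double knockout. The Igtp gene model lies over 7974 bases of Irgm2 on the same strand, so reads of these 2 members cannot be told apart there. The PARP and DTX3L genes, an ADP-ribosylation module, had a median of 0.996, with Parp14 at 13.1, 22.4 and 15.3 CPM in E14 and 44.5, 34.6 and 53.2 CPM in the double knockout. Dtx3l was at 19.7 to 25.6 CPM in E14 and 38.7 to 54.6 CPM in the double knockout.

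In the antigen processing group the median was 1.03. Psmb8, an immunoproteasome subunit, was at 5.11, 5.91 and 3.81 CPM in E14 and 16.4, 10.6 and 11.5 CPM in the double knockout. Tap1, a subunit of the peptide transporter, was at 15.1, 16.8 and 11.6 CPM in E14 and 33.8, 16.8 and 15.6 CPM in the double knockout, so 1 library carried its difference and the log2 value fell from 0.58 to 0.14 without it. Lgals3bp, a secreted glycoprotein that binds galectins, was at 9.39, 8.49 and 13.1 CPM in E14, 16.6, 13.4 and 19.9 CPM in KAT6A-/-, 17.1, 18.7 and 17.1 CPM in KAT6B-/- and 32.3, 25.3 and 41.5 CPM in the double knockout, which lay above all others. Lgals9, the beta-galactoside-binding lectin galectin 9, was at 6.05 to 7.48 CPM in E14 and 13.4 to 19.1 CPM in the double knockout.

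The single knockouts at day 6 are set beside the same E14 libraries that chose the set. Genes picked for standing low in those libraries lean upward in any comparison with them, so these values too are a description and no test is read. In KAT6A-/-, 40 of the 41 members were above 0, with a median log2 difference of 0.67, beside 50% above 0 and a median of -0.000236 over all genes. In 27 members the KAT6A-/- libraries lay above E14 without overlap, as did those of 5.84% of genes. In KAT6B-/- the median was 0.0652, and 25 of 41 were above 0 where 47.4% of genes were. That median was 0.26 without KAT6B-/- replicate 1 and 0.00499 without replicate 3. The mean of the double knockout was the highest of the 4 genotypes in all 41 members at day 6, where 22.2% of genes had that order, and in 40 of the 41 the KAT6A-/- mean lay between E14 and the double knockout, where 20.3% of genes had that order. In 19 members all 3 double knockout libraries were above the 9 others, as in 1.33% of genes. The double knockout differed from KAT6A-/- by a median of 0.531 and from KAT6B-/- by 1.03 on the log2 scale, given with no test because the double knockout libraries are those that chose the set.

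At day 0, outside the contrast that chose the set, the members were not higher together in the double knockout. Earlier results of these data were known when the members were chosen, so these libraries were not wholly unseen. Of 38 that passed the filter, 23 were above 0 with a median of 0.0601, beside 49.9% above 0 and a median of -0.00159 over all 18935 genes. By edgeR, Lgals9 and Ifitm3 rose, 2 of 38 members where 1.29% of genes were called higher, and 0 members were called lower, where 0.792% of genes were. At an unadjusted p under 0.05, 2 were lower, against 9.55% of genes, and 1 member was called lower by DESeq2, which called 2.81% of genes lower, and 1 without the filter on low counts. The groups did not overlap for 6 higher and 2 lower members, against 10.5% and 7.68% of genes. Irf7, Ifit3b and Mx1 were too low to test, and of the 38 tested 33 reached the filter in both E14 and the double knockout. The single knockouts gave medians of 0.281 in KAT6A-/- and 0.29 in KAT6B-/-. In KAT6A-/-, 34 of 38 were above 0 where 47.6% of genes were, and in KAT6B-/- 29 of 38 where 50.6% were. Usp18 and Mx2 reached the filter in KAT6A-/- and Mx2 in KAT6B-/- without reaching it in E14. Over the 34 members that reached it in both groups, 30 were above 0 in KAT6A-/- and 26 in KAT6B-/-, with medians of 0.254 and 0.251. No member was called by edgeR, where 0% and 0.00528% of genes were called higher, but 6 were called higher in KAT6B-/- without E14 replicate 2. The share of all genes called without that library is not given here. At an unadjusted p under 0.05, 5 members were higher in KAT6A-/-, against 2.18% of genes, and 8 in KAT6B-/-, against 5.09%. DESeq2 called 0 and 2, where it called 0.0106% and 0.518% of genes higher. The double knockout against KAT6A-/- had 10 of 38 members above 0, where 51.7% of genes were, with a median of -0.18. Against KAT6B-/- it had 11 of 38, where 50.4% of genes were, with a median of -0.265. At an unadjusted p under 0.05, 7 were lower and 1 higher than in KAT6A-/-, against 3.23% and 4.33% of genes. For KAT6B-/- these were 6 and 0, against 2.85% and 3.17%. None was called by edgeR, where 0.0264% and 0% of genes were called lower.

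Lgals9 (ENSMUSG00000001123, chr11:78853800-78875772, minus strand, GRCm39) was at 13.8, 10 and 9.92 CPM in E14, 13.1, 14.2 and 14.1 CPM in KAT6A-/-, 23.7, 18.8 and 24.1 CPM in KAT6B-/- and 24.9, 25.6 and 20.5 CPM in the double knockout. The KAT6B-/- and double knockout libraries shared 1 range, above that of E14 and KAT6A-/-. Lgals9 was higher in the double knockout than in E14 by 1.05 ± 0.17 on the log2 scale (edgeR, adjusted p = 0.00821). Against KAT6B-/- the difference was 0.09 ± 0.16 (adjusted p = 1) and against KAT6A-/- 0.81 ± 0.16 (adjusted p = 0.134). Ifitm3 (ENSMUSG00000025492, chr7:140589499-140590683, minus strand, GRCm39) was at 92.3, 104 and 93.9 CPM in E14, 113, 141 and 119 CPM in KAT6A-/-, 146, 123 and 144 CPM in KAT6B-/- and 153, 124 and 147 CPM in the double knockout. All 9 knockout libraries lay above the 3 E14 libraries. The double knockout was higher by 0.52 ± 0.12 (adjusted p = 0.037), a call that was lost without E14 replicate 1 or 3 or KAT6B-/- replicate 1 or any 1 double knockout library (adjusted p up to 0.122).

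At day 2 more members leaned upward. Of 39 tested, 34 were above 0 with a median of 0.348, beside 0.00771 and 51.2% above 0 over all 19594 genes. By edgeR, Lgals9, Ifitm3 and Zbp1 rose, 3 of 39 where 0.822% of genes were called higher, and 0 were called lower, where 0.301% were; at an unadjusted p under 0.05, and by DESeq2, 0 were lower too. In 17 members the groups did not overlap, all higher, against 12.4% of genes, and 15 members were higher at an unadjusted p under 0.05, against 7.66%. These counts include Irf7 and Ifit3, which reached the filter on low counts in neither E14 nor the double knockout. Over the 37 members that reached it in both groups, 32 were above 0, with a median of 0.348. The count of 3 became 1 when any E14 library or double knockout replicate 2 was left out and 6 without replicate 1 of the KAT6B-/- knockout, a check chosen after the data were seen. With 1 library left out the member median stayed between 0.226 and 0.457. The count was 9 with DESeq2, which called 2.32% of genes higher, 7 without the filter, 7 with only the 6 libraries compared in the fit, 5 with a replicate block and 1 with all 48 libraries in 1 fit. Among these settings and the fits with 1 library left out, the share of all genes called is given for DESeq2 only.

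Lgals9 at day 2 was at 3.82, 2.78 and 2.98 CPM in E14, 7.64, 5.73 and 6.52 CPM in KAT6A-/-, 5.08, 7.39 and 8.53 CPM in KAT6B-/- and 14.3, 17.8 and 14.1 CPM in the double knockout. The single knockouts lay between, overlapping each other but neither E14 nor the double knockout. The double knockout was above E14 by 2.25 ± 0.23 (log2, SE; adjusted p = 0.000703), above KAT6A-/- by 1.22 ± 0.21 (adjusted p = 0.0991) and above KAT6B-/- by 1.12 ± 0.21 (adjusted p = 0.15).

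Ifitm3 at day 2 was at 49.6, 52.5 and 54.4 CPM in E14, 86.5, 69.2 and 90.4 CPM in KAT6A-/-, 46.3, 104 and 78.9 CPM in KAT6B-/- and 104, 106 and 146 CPM in the double knockout. KAT6B-/- replicate 1 was at the level of E14. The double knockout was above E14 by 1.16 ± 0.21 (log2, SE; adjusted p = 0.0152). Zbp1 (ENSMUSG00000027514, chr2:173048405-173060716, minus strand, GRCm39) was at 6.69, 6.61 and 4.73 CPM in E14, 7.67, 8 and 8.51 CPM in KAT6A-/-, 6.19, 11.8 and 10.1 CPM in KAT6B-/- and 12.7, 19.1 and 13.8 CPM in the double knockout. It was higher by 1.33 ± 0.24 (adjusted p = 0.0137), above every library of the other 3 groups. Without E14 replicate 1, 2 or 3 or double knockout replicate 2, the adjusted p of Ifitm3 was up to 0.106 and that of Zbp1 up to 0.0818.

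**Figure D4:**
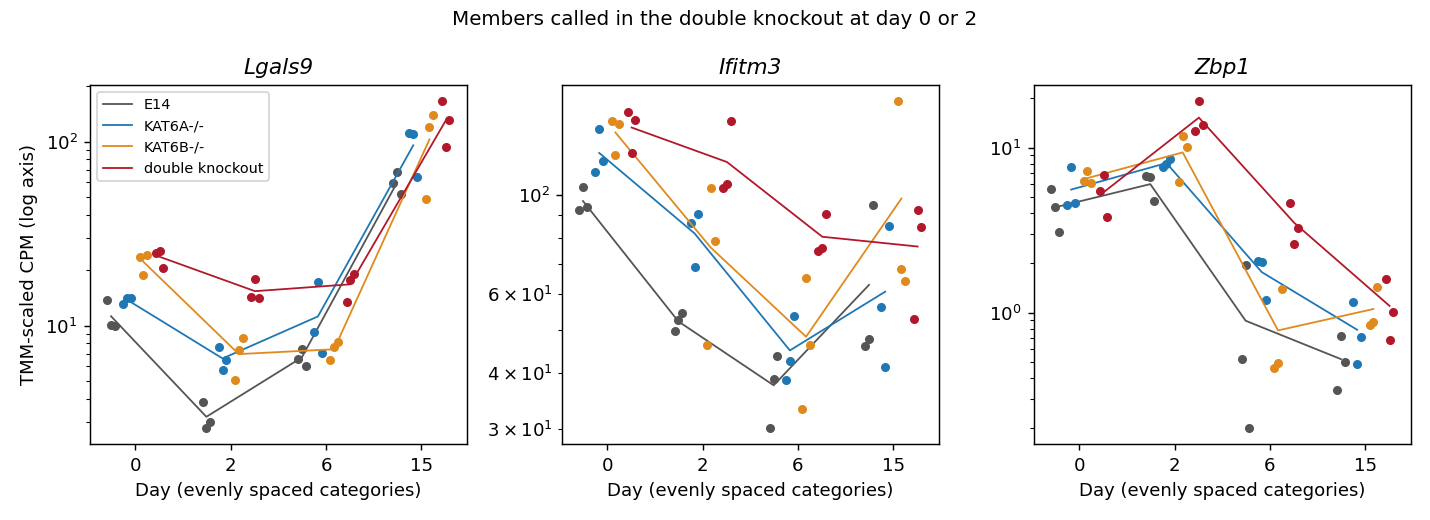
CPM on a log axis of Lgals9, Ifitm3 and Zbp1, the members called in the double knockout at day 0 or day 2, against day drawn as evenly spaced categories; points are libraries and lines join group means of 3. Lgals9 fell in E14 to 2.78 to 3.82 CPM at day 2 while the double knockout stood at 14.1 to 17.8 CPM, and Zbp1 was highest at day 2 in the double knockout.

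Lgals3bp was near the threshold at day 2, at 9.09, 6.7 and 9.23 CPM in E14 and 11.9, 20.7 and 20.5 CPM in the double knockout, a difference of 1.07 ± 0.25 (adjusted p = 0.0567 in edgeR). The largest fitted values belonged to scarce genes. Irf7 was at 0.0296, 0.0278 and 0.0608 CPM in E14 and 0.205, 1.07 and 0.314 CPM in the double knockout, and Ifit3 at 0.0592, 0.0278 and 0.0811 CPM in E14 and 0.205, 0.627 and 1.18 CPM in the double knockout. Neither passed the test (adjusted p = 0.115 and 0.171). Rsad2, Isg15 and Ifit1, which had large differences at day 6, differed at day 2 by 0.30 ± 0.27, 1.02 ± 0.62 and 0.76 ± 0.43 (log2, SE; adjusted p = 0.734, 0.56 and 0.518), with overlapping groups for Rsad2 and Isg15.

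In the single knockouts at day 2, KAT6B-/- had 37 of 39 members above 0, where 54.3% of genes were, with a median of 0.522, and 17 were higher at an unadjusted p under 0.05, against 2.33% of genes. KAT6A-/- had 30 of 39 above 0, where 51.6% of genes were, with a median of 0.303 and 7 higher at that threshold, against 4.8%. Irf7 and Ifit3, which reached the filter in none of these groups, are included in both. Over the 37 members that reached it in E14 and the knockout, 35 were above 0 in KAT6B-/- and 28 in KAT6A-/-. The medians over these 37 were 0.438 and 0.238. None was called in either by edgeR, where 0% of genes were called higher in both, and DESeq2 called 1 in KAT6A-/- and 2 in KAT6B-/-, where it called 0.097% and 0.0459% of genes higher. KAT6B-/- replicate 1 was the lowest of its group at day 2 as well, with a member median of 0.0905 above the E14 mean against 0.471 and 0.76 in the other 2 libraries. The double knockout differed from KAT6A-/- by a median of 0.263 and from KAT6B-/- by -0.0821, with 0 members called in either by edgeR, where 0.0051% of genes were called higher in each. At an unadjusted p under 0.05, 7 were higher than in KAT6A-/-, against 5.14% of genes, and 4 higher than in KAT6B-/-, against 5.02%. DESeq2 called 2 and 1, where it called 0.485% and 0.602% of genes higher.

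At day 15 the members no longer moved in 1 direction. In the double knockout 27 of 41 were above 0, with a median of 0.204, beside 50.6% above 0 and a median of 0.00764 over all 20225 genes. None was called by edgeR, where 1.86% of genes were called higher and 1.32% lower; at an unadjusted p under 0.05, 9 were higher and 3 lower, against 13.8% and 10.8% of genes, and DESeq2 called 7 higher and 3 lower, where it called 6.43% and 7.04% of genes. In 13 members the groups did not overlap and were higher, and in 3 they were lower, against 21.6% and 20.4% of genes. Irf1 was at 18.3, 20.5 and 21.7 CPM in E14, 49.7, 31.4 and 34.2 CPM in KAT6A-/-, 56.7, 37.9 and 35.7 CPM in KAT6B-/- and 44.9, 31.3 and 43.8 CPM in the double knockout (0.97 ± 0.24, adjusted p = 0.0561). All 9 knockout libraries lay above E14. Isg15 had been highest in the double knockout at day 6, but at day 15 it was at 9.36, 8.44 and 16 CPM in E14 and 5.15, 10.4 and 8.62 CPM in the double knockout. Usp18, Mx2 and Gbp3 were lower without overlap, by -1.21 ± 0.39, -0.78 ± 0.29 and -0.78 ± 0.22 (log2, SE; adjusted p = 0.107, 0.139 and 0.0771).

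The medians of the single knockouts had opposite signs at day 15, and the difference between them was not tested. KAT6A-/- had 16 of 41 members above 0, where 51% of genes were, with a median of -0.186, which ran from -0.313 to -0.0188 with 1 library left out. KAT6B-/- had 35 of 41 above 0, where 54.7% of genes were, with a median of 0.389, which ran from 0.21 to 0.541. Neither had a called member in edgeR, where 0% of genes in KAT6A-/- and 0.0346% in KAT6B-/- were called higher; at an unadjusted p under 0.05, 3 were higher and 7 lower in KAT6A-/-, against 7.66% and 3.73% of genes, and 7 were higher in KAT6B-/-, against 10.6%. DESeq2 called 2 higher and 4 lower in KAT6A-/-, where it called 1.04% and 0.613% of genes, and 4 higher in KAT6B-/-, where it called 4.1%. The double knockout against KAT6A-/- had 34 of 41 members above 0, where 48.5% of genes were, with a median of 0.398. Against KAT6B-/- it had 10 of 41, where 50.7% of genes were, with a median of -0.272. At an unadjusted p under 0.05, 11 were higher and 0 lower than in KAT6A-/-, against 2.15% and 2.9% of genes. For KAT6B-/- these were 0 and 2, against 1.68% and 3%. None was called by edgeR, where 0% of genes were called higher in each. Without KAT6B-/- replicate 1, edgeR called 7 members higher in KAT6B-/- and 6 higher and 1 lower in the double knockout. The share of all genes called in that fit is not given here, so these counts are not read. Replicate 1 had a member median of 0.111, beside 0.203 and 0.625 in replicates 2 and 3. Its summed mesenchyme markers were 18550 CPM, beside 5362 and 4632 CPM in those libraries. Why the counts shifted was not tested. The cultures differed in makeup at this day. Summed mesenchyme markers were 1660 to 4440 CPM in E14 and 2493 to 7017 CPM in KAT6A-/-. They were 4630 to 18500 CPM in KAT6B-/- and 7420 to 8720 CPM in the double knockout, and their part in the member values was not tested.

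Whether the double knockout effect differed between days was tested as an interaction, using days 0, 2 and 15. Between days 0 and 2 the change of the effect, fitted gene by gene, had a median of 0.407 over the 39 members tested. At an unadjusted p under 0.05, 10 members changed, all upward, where 3.25% of genes did. Ifit3, among these 10, reached the filter on low counts in neither group at either day. In edgeR 0 were called, where 0% of genes were, and DESeq2 called 1, where it called 0.0725% of genes higher. Between days 0 and 15 the effect on Irf1 rose by 1.12 ± 0.21 (adjusted p = 0.0251), 1 of 40 members tested where 1.03% of genes were called higher. Between days 2 and 15 the effects on Gbp3 and Lgals9 fell by 1.71 ± 0.36 and 1.16 ± 0.29 (adjusted p = 0.0263 and 0.0448), 2 of 40 where 1.98% of genes were called lower. Gbp3, a guanylate-binding GTPase, averaged 14 ± 0.617 CPM in E14 and 26.9 ± 11.6 CPM in the double knockout at day 2, and 6.79 ± 0.503 and 3.99 ± 0.532 CPM at day 15 (SD, n = 3). The Irf1 call was lost without any 1 of 8 of the 12 libraries: all of day 0 but E14 replicate 2, and at day 15 E14 replicates 1 and 3 and double knockout replicate 1. Neither Gbp3 nor Lgals9 was called without E14 replicate 1 or 3 of day 15, any 1 E14 library of day 2, or double knockout replicate 2 of day 2.

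In unedited E14 cells the set did not move as a block during differentiation. Against day 0, 12 members rose and 4 fell at day 2, where 9.5% and 12.1% of genes did. Day 6 is left out of these tests, since its E14 libraries helped to choose the set. At day 15, 22 rose and 13 fell, where 36.5% and 33.2% of genes did. At day 15, 11 of the 16 effectors rose, and the range was wide: Ifit1 from 0.346, 0.815 and 0.583 CPM at day 0 to 5.43, 4.75 and 10.3 CPM, and Ifit3 from 0, 0.349 and 0 CPM to 3.2, 3.35 and 3.52 CPM. Usp18, Irf7, Mx2 and Rtp4 rose too. Of the 41 members, 34 reached the filter on low counts at both days in each of these comparisons. A further 3 reached it at day 2 but not day 0, and 6 at day 15 but not day 0. Usp18, Irf7, Mx2 and Ifit3 did not reach it at day 0, so the counts of members that rose rest partly on such genes. The PARP and DTX3L genes fell at day 15, all 3 of them, with Psmb8 and Psmb9, Gbp2 and Gbp3, Zbp1, Slfn5 and Irf1. Irf1 went from 119, 104 and 106 CPM to 18.3, 20.5 and 21.7 CPM, a fall of -2.40 ± 0.16 (log2, SE; adjusted p = 1.92e-08). Zbp1 fell from 5.59, 4.34 and 3.1 CPM to 0.342, 0.724 and 0.502 CPM.

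The rest of the interferon pathway was read from lists of genes outside the set. Of 21 interferon ligand genes, 0 passed the filter at day 6. In the whole series 10, among them Ifnb1, had no count in 48 libraries, which allows up to 0.00143 CPM (3 counts over 2093 M, counting error only), and 20 had fewer than 30 counts in all. The exception was Ifnk, interferon kappa, with 242 counts. In the 3 double knockout libraries of day 6 all ligands together had 10 counts, and in the E14 libraries 2.

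The day 6 values of these lists are a description, as for the members. Among receptor chains and kinases, 8 of 9 were above 0 with a median of 0.122. In the nucleic acid sensing list, 9 of 14 were above 0 with a median of 0.259, and its highest were Tlr3, the endosomal receptor for double-stranded RNA, at 1.60, and Sting1, the adaptor of cytosolic DNA sensing, at 1.35. The list of genes that restrain the response or clear nucleic acid had 7 of 16 above 0 and a median of -0.0305. Class I histocompatibility genes and their loading factors were all above 0, 15 of 15, with a median of 0.468.

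Other interferon-stimulated genes, 81 that are not members, were also mostly higher at day 6. Of 67 tested, 62 were above 0, where 47.5% of all genes were, with a median of 0.978. Without overlap 42 were higher, where 6.6% of genes were. This list too was chosen with earlier results of these data known, so its values are a description. How many of the 67 reached the filter on low counts in E14 is not given here. Oas2, which makes the activator of RNase L, had a log2 difference of 2.56. Of their promoter windows 28 of 58 (48.3%) held the ISRE core. Members with the core had a median log2 difference of 1.31 at day 6 (18 genes) and those with a window without it 0.896 (15 genes), ranges that overlapped from 0.35 to 1.80. With and without the core, the medians were 0.0323 and 0.109 at day 0, 0.359 and 0.285 at day 2, and 0.102 and 0.304 at day 15. The order thus differed between days.

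**Figure D5:**
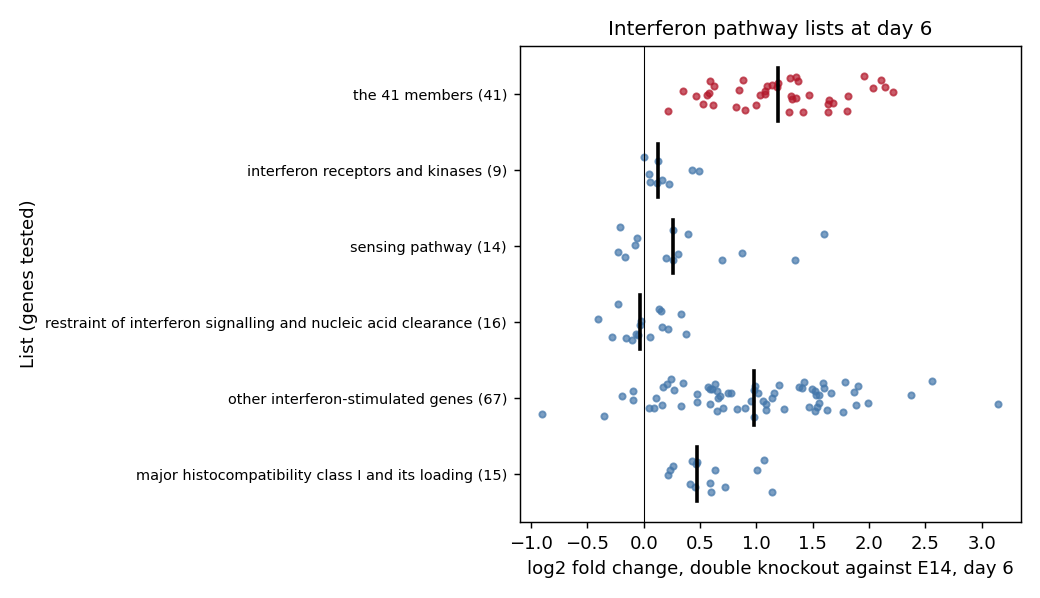
Log2 fold changes of the double knockout against E14 at day 6 for the 41 members and for 5 lists of other pathway genes; each point is 1 gene that passed the filter, vertical bars are medians, and vertical scatter is only for display. The members (median 1.20) and the other interferon-stimulated genes (0.978) lie mostly to the right of 0, and receptors and kinases (0.122) and the restraint list (-0.0305) lie around it.

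At other days some genes of these lists were called in the double knockout by edgeR (adjusted p under 0.05). Of all genes, 1.29% were called higher and 0.792% lower at day 0, 0.822% higher at day 2 and 1.86% higher at day 15. The number of list genes tested at these days is not given here, so the named calls are a description and are not set against these shares. At day 0, Aim2, a cytosolic DNA sensor, and Rnf213, an interferon-induced ubiquitin ligase, rose by 1.17 and 0.58, and Rnaseh2a, a subunit of the RNase that removes RNA from DNA hybrids, fell by 0.60. At day 2, Aim2 and the kinase Ikbke rose by 1.21 and 1.48. At day 15, Ifnar1, Ifnar2 and Il10rb, receptor chains of type I and lambda interferons, rose by 0.51, 0.89 and 1.78, and Sting1 by 2.15 on the log2 scale. Ifnar2, Il10rb and Ifnar1 lie close together on chromosome 16.

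Markers of other cells were read beside the day 6 result. Of 12 macrophage and microglia markers, which would mark cells with a strong interferon response of their own, the sum was 8.14 to 17.1 CPM in E14 and 13.5 to 23.9 CPM in the double knockout, and most of it was Cd68, a lysosomal protein gene. In each of these groups 2 of the 12 were at 0 in all 3 libraries: C1qa and C1qb, microglial complement genes, in E14, and C1qa and Ptprc, the blood cell marker CD45, in the double knockout. The part of these markers in the member values was not tested. Summed trophoblast markers were higher without overlap, 125 to 133 CPM against 61 to 83.3 CPM in E14, with Krt7 the largest, and their part in the member values was not tested. Endothelial markers (199 to 430 against 95.6 to 361 CPM) and mesenchyme markers (331 to 532 against 207 to 481 CPM) overlapped. The Parp9 and Dtx3l gene models overlap on opposite strands, as do Psmb9 and Tap1, and the strand setting of the counting is not given in the sources used here.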

How the data were processed

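RNA of 48 libraries was depleted of ribosomal RNA and read as strand-specific paired ends, per the labels' protocols. The authors deposited raw gene counts (whole numbers), from reads aligned to GRCm39 with HISAT2, per the submitters' processing notes; which program counted them, with which version, strand setting and annotation, is not given in the sources used here. Of 36983 entries, 48 with a repeated identifier were left out.

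Counts were tested with edgeR 4.0.16 in R 4.3.3 by quasi-likelihood (robust, TMM scaling), with genes kept by its expression filter (minimum count 10, total 15), the 12 libraries of a day in 1 fit, Benjamini-Hochberg adjustment over all genes and calls at adjusted p under 0.05. The E14 days were fitted with the 12 E14 libraries (20503 genes), and each interaction with the 12 libraries of E14 and the double knockout at 2 days. Levels are CPM scaled by TMM over 48 libraries; log2 levels add a prior count of 2. Replicates varied by 19.3% at day 0, 21% at day 2, 24.6% at day 6 and 37.8% at day 15 (edgeR's biological coefficient of variation), at depths of 22.5 to 72.23 M counts.

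The members and gene lists were chosen with earlier results of these data known. Named genes were members called in the double knockout at day 0, 2 or 15, the 6 of largest change at day 6 with a mean of at least 1 CPM, the 2 of highest mean in each role group, and up to 4 called genes of each pathway list. Other names, such as Tlr3, Lgals3bp at day 2 and the promoters shown, were chosen after their values were seen. The criterion for pairing by replicate number was that all 3 correlations of deviations from the group mean exceed 0.1. Only the E14 and double knockout libraries of day 6 met it (0.116 to 0.392), and missing it does not show that libraries are unpaired. Alternatives were RLE size factors, other filters, DESeq2 1.42.0 (shares over the genes in the fit), other sets of libraries in the fit, a replicate block and leaving out each library. The test was tested on simulated data. Motifs were searched by exact letters in RefSeq promoter windows of GRCm38.p6; gene positions are those of the deposited table. One item of the named-gene rule is not reported here.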

Additional observations from a re-analysis of the deposited data

Results flagged for a closer look

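Among the members, 3 differed between days in how the double knockout stood against E14, by the interaction test of edgeR. The double knockout effect on Irf1 was -0.17 at day 0 and 0.97 at day 15, a change of 1.12 on the log2 scale (adjusted p = 0.0251). The effect on Gbp3 was 0.92 at day 2 and -0.78 at day 15, a change of -1.71 (adjusted p = 0.0263). The effect on Lgals9 was 2.25 at day 2 and 1.11 at day 15, a change of -1.16 (adjusted p = 0.0448). Day 6, whose libraries chose the set, was not used in these tests. At this threshold 1.03% of genes were called higher between days 0 and 15 and 1.98% lower between days 2 and 15, beside 1 and 2 of 40 members. The Irf1 call was lost without any 1 of 8 of the 12 libraries, neither Gbp3 nor Lgals9 was called without any 1 of 6 of the 12, and a replicate block left 1 member called lower between days 2 and 15.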

How the results depend on the processing

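Member medians in each knockout against E14 kept their sign under every alternative run, and no called result reversed. Shares of all genes are given for the main fit and DESeq2 only, so member counts under the other settings have no share beside them. RLE size factors and a filter of at least 1 CPM in 3 libraries moved no count of called members by over 1.5 times. With no filter, the count called higher went from 0 to 1 for KAT6B-/- at day 0, for the double knockout against KAT6A-/- at days 0 and 2 and against KAT6B-/- at day 2, from 3 to 7 for the double knockout against E14 at day 2 and from 5 to 11 at day 6, and its day 0 count called lower from 0 to 1. DESeq2 called 2 members higher in KAT6B-/- at days 0, 2 and 6 and 4 at day 15, 1 in KAT6A-/- at day 2 and 2 at day 15, with 4 lower. In KAT6B-/- at day 6 it called 0.867% of all genes higher. For the double knockout against E14 it called 1 lower at day 0, 9 higher at day 2, 29 higher at day 6, and 7 higher and 3 lower at day 15. Against KAT6A-/- it called 1 higher and 2 lower at day 0, 2 higher at day 2 and 1 higher at day 15, and against KAT6B-/- 1 higher at day 2 and 1 lower at day 15. Its shares of all genes against KAT6A-/- were 0.438% higher and 0.312% lower at day 0. They were 0.485% higher at day 2 and 0.109% higher at day 15. Against KAT6B-/- the shares were 0.602% higher at day 2 and 0.311% lower at day 15. For changes of the effect it called 1 higher between days 0 and 2, 4 higher between days 0 and 15, and 2 higher and 5 lower between days 2 and 15. Of all genes it called 0.0725% higher, 3.65% higher, and 5% higher and 5.67% lower in these 3 comparisons.

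With only the compared groups in the fit, the double knockout had 0 called at day 0, 7 at day 2, 0 at day 6, and 4 higher and 2 lower at day 15. With all 48 libraries in 1 fit it had 0, 1, 9 and 7 called higher at days 0, 2, 6 and 15; at day 15 KAT6A-/- had 1 higher and 3 lower, and KAT6B-/- 6 higher. The cause of these shifts was not tested. A replicate block gave 1 called higher in KAT6B-/- at days 0 and 6, 5 in the double knockout at day 2, and 1 higher and 1 lower between days 2 and 15; it changed no other count by over 1.5 times. Same-numbered libraries of E14 and the double knockout correlated by 0.0756 to 0.23 at day 0 and 0.0568 to 0.284 at day 2, all positive. At day 15 they correlated by -0.208 to 0.186. These values do not settle whether libraries outside day 6 are paired by number.

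Leaving out 1 library at a time gave 1 to 3 members called higher and 0 to 1 lower in the double knockout at day 0 (median 0.0215 to 0.209), 1 to 6 at day 2, 0 to 16 at day 6, and 0 to 6 higher and 0 to 1 lower at day 15. It gave 0 to 6 in KAT6B-/- at day 0, the 6 without E14 replicate 2, and 0 to 7 at day 15, a median of 0.556 to 0.783 in KAT6A-/- at day 6, and 0 to 1 higher for the double knockout against KAT6A-/- at day 2. In E14 at day 2 it gave 6 to 14 higher and 1 to 3 lower, and for changes of the effect 0 to 3 higher between days 0 and 15, and 0 to 1 higher and 0 to 2 lower between days 2 and 15. Lgals9 kept its call at day 2 in all 14 settings and at day 0 in 12 (adjusted p up to 0.079). Depth limits the scarce members: Irf7, Ifit3b and Mx1 were not testable at day 0, and Ifit3b and Mx1 at day 2.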
